A study of Mus musculus with 12 samples.

Results

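The genes described here are the 9 measured members of the RANK axis and a set of NF-kB genes tied to it, out of 21743 genes in the deposited table: the ligand Tnfsf11 (RANKL), its receptor Tnfrsf11a (RANK), the soluble decoy receptor Tnfrsf11b (osteoprotegerin), the NF-kB subunit genes Nfkb1 and Relb, the NF-kB inhibitors Nfkbia and Tnfaip3, and the NF-kB target genes Ubd and Tnfaip2. They were chosen by name as a pathway and not by a measured value, though with earlier results of these data already known. All 9 were present in the table. Their level and their share of positive cells were followed in the 4 tissues sampled and in the cell classes of each.

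The study profiled single cells by Drop-seq, a droplet method that captures the 3′ end of mRNA and counts molecules by unique molecular identifiers (UMIs), from 2 mice with a mammary tumor. Both mice carried MMTV-Cre and 2 floxed Brca1 alleles on a mixed C57BL/6 and 129/Sv background, and the labels give no age for them, while the study's methods state an age for gland donors without saying whether it covers these tumor-bearing mice. The MMTV promoter drives Cre mainly in mammary epithelium, so all 4 groups carry the same deletion design, the extent of deletion in the captured cells was not tested, and no mouse with intact Brca1 stands among the samples. MG1 and MG2 are the fourth mammary glands of the first and the second mouse and MT1 and MT2 their tumors, each enriched for epithelial cells before capture, with 2, 2, 5 and 3 libraries. Each group is thus 1 tissue of 1 animal, and its libraries are repeats of that tissue.

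RANKL is made in the mammary gland mainly by progesterone-responsive luminal cells and acts on RANK on neighbouring luminal progenitors, where it drives proliferation. RANK signals through TRAF adaptors to both arms of NF-kB, the canonical arm ending in p50 dimers (from Nfkb1) and the non-canonical arm ending in RelB dimers. Osteoprotegerin binds RANKL and keeps it from the receptor, while IkappaBalpha (Nfkbia) and A20 (Tnfaip3) are made in response to NF-kB and switch it off. Ubd encodes the ubiquitin-like modifier FAT10, and Tnfaip2 encodes a TNF-induced protein that is an NF-kB target.

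Promoter sequences are shown first because several of these genes are known targets of NF-kB. RefSeq promoter windows on build GRCm38.p6, from 250 bases before to 50 bases after the start, were matched for 6 of the 9 genes (7 windows). The motif GGGNATTTCC, looked for on both strands and chosen after the sequences had been read, was found in 3 of the 7 windows and in 105 of all 32851 windows of that length (0.320%). Since it was picked from these windows, the shares are a description and no comparison. The wider NF-kB consensus was found in 4 of the 7 windows, those 3 and that of Tnfaip2, and in 2779 of all windows (8.46%). The 3 windows with the motif belong to Ubd, Nfkbia and Tnfaip3. The last 120 bases before each RefSeq start are printed 5′ to 3′ on the gene's strand, with the match in capitals. The match lies 15 to 6 bases before the start in Ubd (chr17:37193772-37193891, plus strand), 29 to 20 bases before it in Nfkbia (chr12:55492648-55492767, minus strand, motif read on the opposite strand) and 12 to 3 bases before it in Tnfaip3 (chr10:19015411-19015530, minus strand, motif read on the opposite strand). For Ubd and Nfkbia the RefSeq start is also the start of the annotated gene given below, whereas for Tnfaip3 the annotated gene starts further upstream, so the stretch printed for it lies inside the annotated gene.
Ubd: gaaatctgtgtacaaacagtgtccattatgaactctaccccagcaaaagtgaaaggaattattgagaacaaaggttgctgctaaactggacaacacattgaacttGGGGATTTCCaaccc
Nfkbia: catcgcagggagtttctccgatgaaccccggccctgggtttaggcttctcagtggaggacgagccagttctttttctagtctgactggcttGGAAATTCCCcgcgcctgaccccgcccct
Tnfaip3: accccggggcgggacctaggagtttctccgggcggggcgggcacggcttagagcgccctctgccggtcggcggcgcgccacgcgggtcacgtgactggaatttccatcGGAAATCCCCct
The windows of Tnfrsf11a, Tnfaip2 and Tnfsf11 held no match to those letters. A match describes the letters in this window and is not a measured binding site.

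The table held 21157 cells, of which 818 came from MG1, 2335 from MG2, 7690 from MT1 and 10314 from MT2. Library totals ran from 693333 UMIs (MG1 replicate 2, 105 cells) to 14841414 UMIs (MT2 replicate 1), and the median depth of a cell from 1784 UMIs in MT1 replicate 1 to 4842 UMIs in MG1 replicate 2. Clustering without the 9 genes gave 12 clusters. Luminal hormone-sensing-like, luminal secretory-like and basal-like cells came mostly from the glands. Sfrp1-high and Ccl20-high epithelial-like cells and Cav1-high cells came mostly from MT1, and Celf4-high, Nrep-high and Top2a-high cells, named by a leading gene because no epithelial marker list was raised in them, came from MT2. The stromal clusters were fibroblast-like, endothelial-like and immune-like. Summed epithelial markers outside stroma were 13060 to 14773 CPM in MG1, 12181 to 12271 CPM in MG2, 7413 to 9637 CPM in MT1 and 644 to 877 CPM in MT2, with none of the 8 markers at 0, so the labelled mammary tumor MT2 was low in epithelial transcripts. Of the gland cells, 61 of 3153 fell in tumor clusters.

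Levels in the library comparisons are CPM, UMIs of a gene scaled to a common library total, with TMM factors, from UMIs summed per library over the 20027 cells outside the stromal clusters. The test is edgeR's quasi-likelihood test over 13640 genes with Benjamini-Hochberg adjustment, and a call is an adjusted p under 0.05. Its p-values measure the spread between libraries of the same tissue, not between animals. The SE beside a log2 fold change is derived from the same test, as the absolute change divided by the square root of its F statistic. It is not a separate estimate of error. In UMI sums over cells, fewer cells with a transcript and less transcript per cell cannot be told apart. At this level 5 of the 9 genes were called in MT1 against MG1, 4 higher and 1 lower, where 59.3% of all genes tested were called (32.1% higher and 27.1% lower). In MT2 against MG2, 8 of the 9 were called, 4 higher and 4 lower, against 67.0% of all genes (32.8% and 34.2%). The tumor-to-gland change differed between the mice for 5 of the 9, with 3 above and 2 below in mouse 1, against 43.4% of all genes (26.4% and 17.1%). MT1 differed from MT2 for 7 of the 9, with 4 higher and 3 lower, against 68.4% (35.3% and 33.1%). Such shares of calls lie near those of all genes, so the counts say little about the 9 genes as a set, and the genes are described one at a time.

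**Figure D1:**
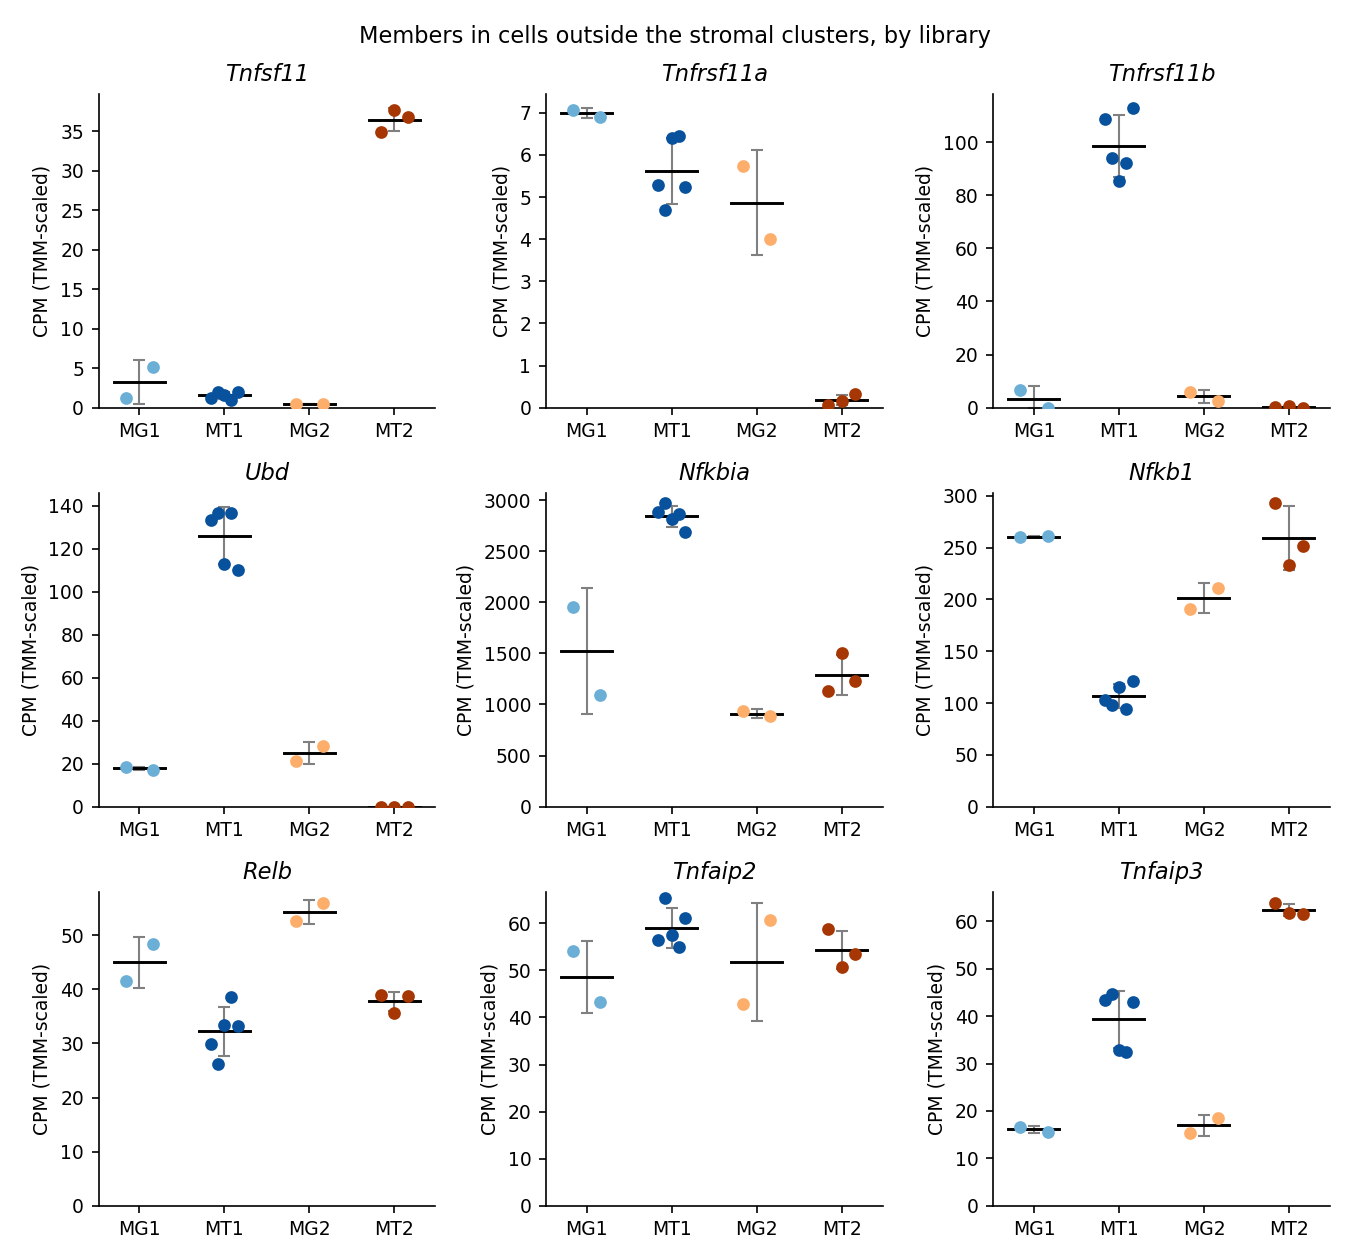
Level of each of the 9 genes in the 12 libraries (points; vertical axis in TMM-scaled CPM of the cells outside stromal clusters; lines give the mean and whiskers 1 SD of each group). Tnfsf11 sits at 34.8 to 37.7 CPM in the 3 MT2 libraries and at or under 5.18 CPM elsewhere, while Ubd is at 110.1 CPM or more in every MT1 library and at 0 in MT2.

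The ligand gene Tnfsf11 (chromosome 14, 78277445 to 78308043, minus strand) was high in the tumor of the second mouse alone among the 4 tissues. Its level was 34.8, 37.7 and 36.8 CPM in the MT2 libraries, against 0.479 and 0.470 CPM in MG2, from 1433 and 4 UMIs. In MG1 it was 1.25 and 5.18 CPM (6 UMIs) and in the 5 MT1 libraries 1.18, 1.96, 1.56, 0.978 and 2.04 CPM (29 UMIs). No library of another group overlapped with MT2, whereas the MT1 and MG1 libraries overlapped. MT2 exceeded MG2 by a log2 fold change of 6.20 ± 0.37 (SE, 73.5-fold, edgeR adjusted p = 5.22e-11; the fitted value is 10.61 against gland luminal secretory-like cells alone, which held 0 UMIs in MG2, so it is no bound), and MT1 did not pass the test against MG1 (-0.44 ± 0.60, adjusted p = 0.607). The latter value changed sign, to 0.29, without MG1 replicate 2, which held 3 UMIs of the gene. Fibroblast and mesenchymal markers moved with the gene in mouse 2: outside stroma the summed fibroblast markers were 306 to 333 CPM in MG2 and 3337 to 3779 CPM in MT2, and the mesenchymal markers 354 to 520 CPM and 7059 to 7460 CPM, with no fibroblast marker at 0, and their part was not tested. The change in mouse 1 was lower than that in mouse 2 (difference -6.64 on the log2 scale, SE 0.97, adjusted p = 2.39e-05).

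Within MT2, Tnfsf11 was found in each tumor cluster. Levels per cell class are plain CPM over the summed cells, and shares of cells with a UMI are given after each cell was thinned to 800 UMIs and then as counted; intervals are exact, at 95%, and cover counting error only. The level was 26.8 CPM in Celf4-high cells, 33.1 CPM in Top2a-high cells and 41.8 CPM in Nrep-high cells. Library by library it was 29.0, 29.6 and 20.0 CPM in Celf4-high cells, 28.9, 33.5 and 37.4 CPM in Top2a-high cells and 38.6, 49.6 and 40.8 CPM in Nrep-high cells. The libraries of Celf4-high and Top2a-high cells overlapped, and those of Nrep-high cells lay above both. Thinned shares were 1.85%, 2.62% and 3.34% in the same order, and unthinned 6.01%, 11.6% and 14.7%, at median depths of 2203, 3618 and 4133.5 UMIs.

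In droplets, free RNA can put UMIs of a gene into cells that do not make it, so the values in other cells of MT2 are given beside those of the tumor clusters. Immune-like cells of MT2 had 14.6 CPM (8 UMIs, thinned share 0.556%, unthinned 3.33% at a median of 2287 UMIs), 41.9% of the level in the tumor clusters. Lce1g, Celf4 and Grem1, which lead the MT2 clusters, stood in immune-like cells at 39.1%, 32.5% and 46.5% of their own tumor levels, beside the 41.9% of Tnfsf11. Endothelial-like cells had 1 UMI of Tnfsf11 (20.1% of its tumor level), against 42.1%, 46.8% and 62.2% for those genes. Fibroblast-like cells of MT2 held 29.0 CPM (interval 18.9 to 42.4, 26 UMIs), 82.9% of the tumor level, against 32.0%, 34.6% and 51.4% for the same 3 genes. No doublet caller was run, and the part of mixed droplets in that value was not tested.

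In the glands Tnfsf11 was rare. Hormone-sensing-like cells held 5 of the 6 UMIs of MG1 and 4 of the 8 of MG2 (3.27 and 1.14 CPM), and luminal secretory-like cells 1 and 0. The other 4 UMIs of MG2 came from fibroblast-like cells (1 UMI) and from 1 immune-like cell (3 UMIs). In MT1, 26 of the 29 UMIs outside stroma lay in Sfrp1-high cells (2.83 CPM, interval 1.85 to 4.14), 2 in Ccl20-high cells (0.323 CPM, interval 0.0392 to 1.17) and none in 1348 Cav1-high cells. These counts are too low for an order within the glands.

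The receptor gene Tnfrsf11a (chromosome 1, 105780718 to 105847981, plus strand) went the other way in the second mouse. It was 5.75 and 3.99 CPM in MG2 (41 UMIs) and 0.0737, 0.153 and 0.315 CPM in MT2 (7 UMIs). In MG1 it was 7.07 and 6.91 CPM (21 UMIs), and in MT1 5.29, 4.70, 6.40, 6.46 and 5.24 CPM (113 UMIs). The MT2 libraries were below all others, and the libraries of the 3 other groups lay between 3.99 and 7.07 CPM. The gene fell by 4.61 on the log2 scale in MT2 against MG2 (SE 0.45, edgeR adjusted p = 5.84e-08), or by 2.93 with stromal cells included (adjusted p = 4.66e-07), and did not pass in MT1 against MG1 (-0.29 ± 0.38, adjusted p = 0.534). With only luminal secretory-like cells as the gland sample the MT1 value was -1.31 (adjusted p = 0.0238) and with only hormone-sensing-like cells 0.78 (adjusted p = 0.275). The 2 mice differed in this change by 4.33 (SE 0.59, adjusted p = 1.19e-05), or by 2.71 with stromal cells included (adjusted p = 0.000154).

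Summed luminal secretory markers moved with the gene in mouse 2, from 13390 to 13907 CPM in MG2 to 119 to 145 CPM in MT2, with 1 of the 11 at 0 in 2 of the 3 MT2 libraries, and their part was not tested. Among gland epithelial classes Tnfrsf11a was highest in luminal secretory-like cells, at 11.6 CPM in MG1 (14 UMIs, thinned share 1.44%, unthinned 4.33%) and 8.26 CPM in MG2 (30 UMIs, 0.870% and 3.15%). Hormone-sensing-like cells held 3.27 and 2.29 CPM and basal-like cells 6.23 and 5.10 CPM, the latter from 2 and 3 UMIs. Fibroblast-like cells of MG2 had no UMI in 136 cells, and those of MG1 had 2 UMIs in 126 cells (1.59% at a median of 3222.5 UMIs, against 3264 in the secretory-like cells). In MT1 the order was Ccl20-high (8.89 CPM), Sfrp1-high (5.00 CPM) and Cav1-high cells (2.61 CPM), with intervals of 6.70 to 11.6, 3.66 to 6.67 and 1.25 to 4.80 CPM, so the first pair was just separate and the second overlapped.

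In MT2, immune-like cells carried more of the receptor than the tumor clusters, and fibroblast-like cells had none. Immune-like cells held 47.5 CPM (interval 31.0 to 69.6, 26 UMIs in 25 of 180 cells, share 1.11% thinned and 13.9% unthinned), against 0.115 to 0.264 CPM in the 3 tumor clusters and no UMI in 297 fibroblast-like cells. Ctsk, the osteoclast and macrophage protease cathepsin K, was found in 16 of these 25 cells (64%) and in 25.8% of the other immune-like cells, and Acp5, which encodes tartrate-resistant acid phosphatase, in 72% and 41.9%. Csf1r, a marker from the macrophage list, gave much the same contrast as Ctsk (64% and 24.5%). The 25 cells were deeper, with a median of 4094 UMIs against 2226, so shares of any gene are higher in them, and the part of depth was not tested. Endothelial-like cells of MG2 held 66.8 CPM (interval 41.3 to 102, 21 UMIs, thinned share 7.95%, unthinned 20.5%). Of the 1054 MT2 tumor-cluster cells with a Tnfsf11 UMI, none had a Tnfrsf11a UMI, where 7 of all 9789 tumor-cluster cells had one. With only 7 positive cells, this count cannot tell whether the 2 genes lie in separate cells.

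The decoy receptor gene Tnfrsf11b (chromosome 15, 54250619 to 54278484, minus strand) was high in MT1 and nearly missing from MT2. It reached 109, 94.1, 85.4, 92.1 and 113 CPM in the MT1 libraries (1830 UMIs) against 6.66 and 0 CPM in MG1 (16 UMIs). In mouse 2 it was 5.99 and 2.58 CPM in MG2 (36 UMIs) and 0.147, 0.459 and 0 CPM in MT2 (8 UMIs). Neither pair of groups overlapped. MT1 exceeded MG1 by 4.23 ± 0.43 on the log2 scale (18.8-fold, edgeR adjusted p = 2.65e-07), and MT2 fell by 4.26 against MG2 (SE 0.63, adjusted p = 9.98e-06), or by 2.72 with stromal cells included (adjusted p = 0.00011). The changes differed between the mice by 8.49 (SE 0.78, adjusted p = 8.06e-08). The MG1 level rests on replicate 1: without it the remaining library is at 0, the fitted value becomes 12.23 and the difference between the mice 16.46, neither of which is a bound, and without cells that lie in clusters of another tissue the value is 5.55. Summed immune markers outside stroma were 8.66 to 44.1 CPM in MG1 and 42.8 to 124 CPM in MT1, with up to 6 of the 8 at 0 in a library, and summed macrophage markers 5.75 to 6.03 CPM and 3.93 to 5.92 CPM, and their part in the rise of Tnfrsf11b and of Ubd was not tested. The immune list includes Cd74, a leading gene of the Ccl20-high epithelial-like cells of MT1, in which 1 of the 8 immune markers was raised.

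**Figure D2:**
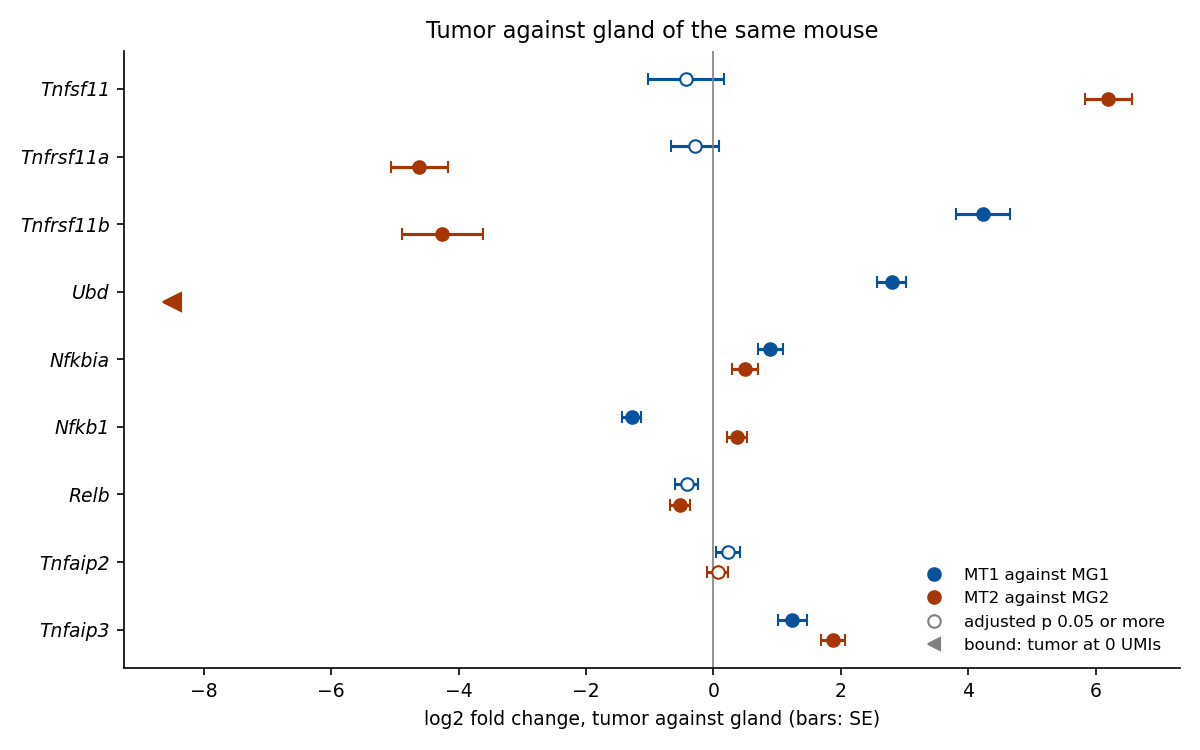
Log2 fold change of each gene (circles, with bars of 1 standard error, open where the adjusted p was 0.05 or more) for MT1 against MG1 and MT2 against MG2; the triangle is the bound for Ubd, at 0 UMIs in MT2. Tnfsf11, Tnfrsf11b and Ubd lie far apart in the 2 mice, while Tnfaip3 lies at 1.24 and 1.88 and Tnfaip2 at 0.23 and 0.07.

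Tnfrsf11b in MT1 was concentrated in Ccl20-high cells. They held 217 CPM (interval 206 to 229), with 270, 208, 191, 212 and 260 CPM in the 5 libraries, and 13.3% of the thinned cells were positive (30.7% unthinned). Sfrp1-high cells held 45.9 CPM (3.63% thinned, 9.76% unthinned) and Cav1-high cells 16.2 CPM (1.04% and 4.08%). The 135 fibroblast-like cells of MT1 gave 38.8 CPM (interval 20.1 to 67.8, 4.44% thinned, 7.41% unthinned, median 1902 UMIs), and the 92 endothelial-like cells 23.3 CPM (interval 7.57 to 54.4, 1.09% and 5.43%, median 1909 UMIs). In the edgeR fit of fibroblast-like cells the gene was called higher in MT1 than in MG1, where they had 0 UMIs (adjusted p = 0.00980, and 0.104 without MG1 replicate 1). The part of free RNA in the values of these stromal cells, of Sfrp1-high cells (median 2113 UMIs) and of Cav1-high cells (median 2328 UMIs) was not tested. Fibroblast-like cells of MT2 held 16.7 CPM (interval 9.35 to 27.6, 15 UMIs), above the 0.0576 to 0.132 CPM of the MT2 tumor clusters. Among the MG2 classes of at least 20 cells, basal-like cells had the highest value, at 17.0 CPM (interval 8.15 to 31.3, 10 UMIs), against 3.43 CPM in hormone-sensing-like and 1.65 CPM in luminal secretory-like cells. The 136 fibroblast-like and 44 Cav1-high cells of MG2 held 3 and 2 UMIs, too few to order them against basal-like cells.

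**Figure D3:**
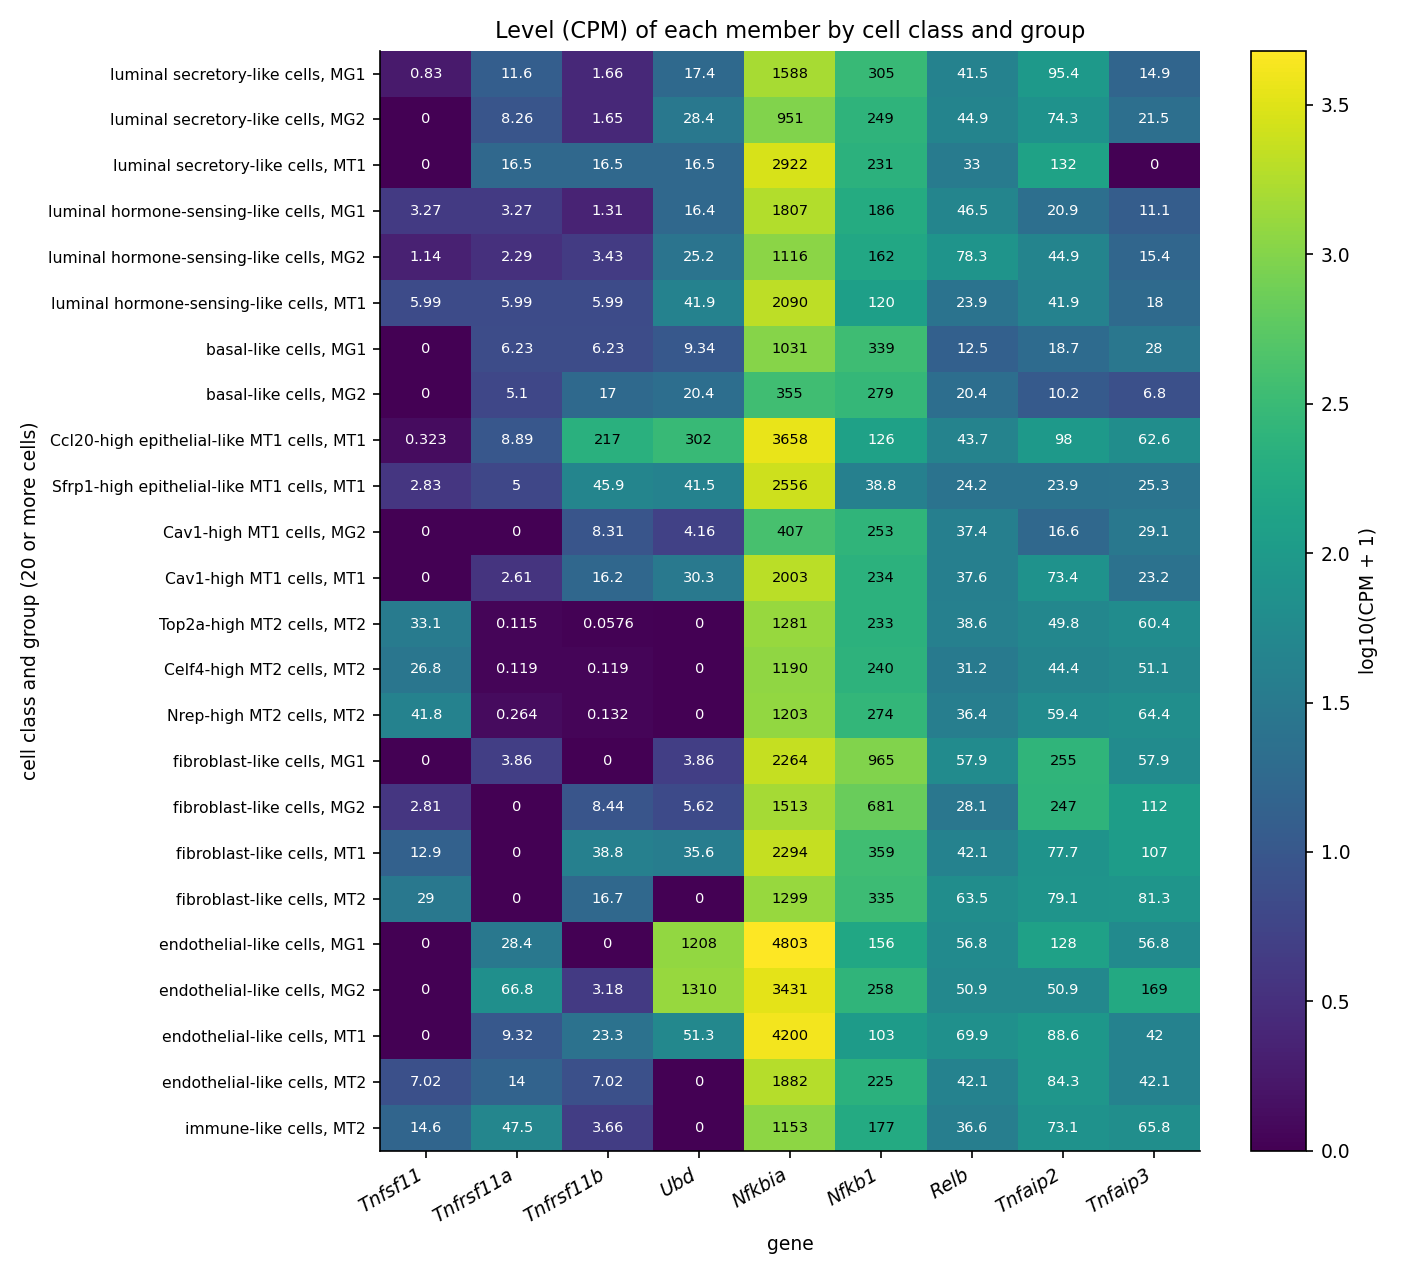
Level of the 9 genes (columns) by cell class and tissue (rows, at least 20 cells), printed as plain CPM of summed cells on a colour scale of log10(CPM + 1). Among tumor classes Tnfrsf11b and Ubd are highest in Ccl20-high cells of MT1 (217 and 302 CPM), and Tnfsf11 is highest in Nrep-high cells of MT2 (41.8 CPM).

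Ubd (chromosome 17, 37193892 to 37196095, plus strand), the FAT10 gene whose promoter is printed above, rose in MT1 and was not found in MT2. Its level was 18.3 and 17.3 CPM in MG1 (54 UMIs) and 133, 137, 113, 137 and 110.1 CPM in MT1 (2376 UMIs). In MG2 it was 21.3 and 28.4 CPM (210 UMIs), and 0 UMIs were counted in the 3 MT2 libraries, including all their stromal cells. MT1 exceeded MG1 by 2.80 ± 0.23 on the log2 scale (6.96-fold, edgeR adjusted p = 6.06e-08), with no overlap of libraries. Against a floor of 3 UMIs over the MT2 group (0.0731 CPM), the MT2 level was at least 360.2-fold lower than that of MG2 (adjusted p = 2.60e-12) and at least 1671-fold lower than that of MT1. The authors had removed genes found in fewer than 4 cells of a count table, so up to 3 positive cells of MT2 could have been lost before deposit. The fitted difference between the mice was 12.98 (SE 0.49, adjusted p = 7.71e-12), a value and an SE set partly by the 0 of MT2. With stromal cells included the MT1 change was 1.33 (adjusted p = 0.00257), and endothelial-like cells then held 85 of the 142 Ubd UMIs of MG1 and 412 of the 624 of MG2.

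Like Tnfrsf11b, Ubd in MT1 was highest in Ccl20-high cells, at 302 CPM (interval 289 to 316), with 335, 314, 275, 338 and 276 CPM in the 5 libraries. The thinned share of positive cells there was 21.1% (44.0% unthinned), and 18.2% to 24.1% across libraries. Sfrp1-high cells had 3.32% (8.52% unthinned, 41.5 CPM) and Cav1-high cells 2.37% (6.82% unthinned, 30.3 CPM), where fibroblast-like cells of the same tumor had 3.70% (6.67% unthinned) at a median of 1902 UMIs. The part of free RNA in the values of Sfrp1-high and Cav1-high cells was not tested. In the glands, luminal cells held 16.4 to 28.4 CPM with unthinned shares from 3.97% in MG1 to 69 of 920 cells in MG2 (both luminal secretory-like), against 1.47% and 1.59% in gland fibroblast-like cells, at median depths of 2508 to 4421 UMIs and 2036.5 to 3222.5 UMIs. The 12 UMIs of MG2 basal-like cells all came from 1 cell.

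The 2 genes were also found in the same Ccl20-high cells. Of 766 cells with Tnfrsf11b, 401 had Ubd (52.3%), against 40.3% of the cells without it. The depths were unequal (medians of 2398 and 1930 UMIs), and after thinning the Ubd shares were 23.8% and 19.9%. The thinned share was higher in the Tnfrsf11b-positive cells in 4 of the 5 libraries and lower in replicate 2 (23.1% against 24.7%). Both genes were among the 10 leading genes of this cluster although neither entered the clustering.

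**Figure D4:**
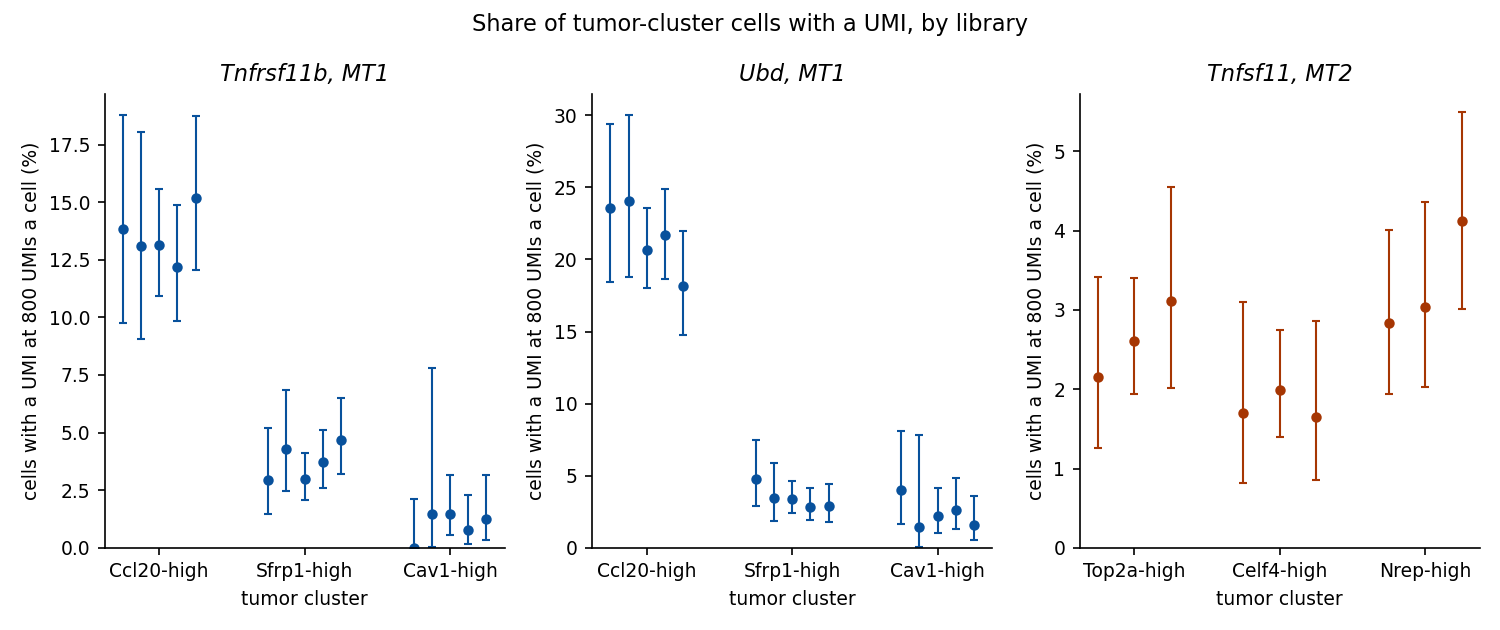
Percent of cells with a UMI after thinning to 800 UMIs, by library (points, with exact 95% binomial intervals), for Tnfrsf11b and Ubd in the MT1 clusters and Tnfsf11 in the MT2 clusters. Ubd spans 18.2% to 24.1% in Ccl20-high cells of the 5 MT1 libraries, against 3.32% in Sfrp1-high and 2.37% in Cav1-high cells over all libraries.

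Ubd had a second place in the glands, in endothelial-like cells, where it stood far above any epithelial class. The level was 574 and 2822 CPM in the MG1 libraries and 1285 and 1355 CPM in MG2. In MT1 it was 82.2, 50.2, 70.4, 16.6 and 63.9 CPM, and no UMI was found in 46 endothelial-like cells of MT2, which allows a share of cells with a UMI of up to 6.52% (3 counts of the total, at a median of 2159 UMIs a cell). The gland and tumor libraries did not overlap. MG1 is thin, since its UMIs came from 2 of 15 cells in replicate 1 and from 1 of 5 cells in replicate 2, whereas 17 of 51 and 13 of 37 cells were positive in MG2. The epithelial enrichment was designed to deplete endothelial and blood cells. This class had all 8 endothelial markers raised, and also 7 of the 10 basal and 2 of the 6 pericyte markers. In an edgeR fit of endothelial-like cells, which took libraries with at least 10 such cells and so left out MG1 replicate 2 and MT1 replicate 1, MT1 fell by 3.72 against MG1 (SE 0.53, adjusted p = 7.85e-06), with the lone MG1 library assumed to vary like the others. MT2 was at least 62.2-fold lower than MG2 (adjusted p = 2.59e-11). Calls in that fit covered 13.4% and 25.9% of its 2220 genes.

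The Ubd-positive endothelial-like cells of the glands differed from the rest in genes that were singled out after their values were seen. Glycam1, a sulfated mucin that L-selectin binds, was found in 31 of the 33 positive cells (93.9%) and in 8% of the other 75. Enpp2, the lysophospholipase autotaxin, was found in 93.9% and 2.67%, and Chst4, a sulfotransferase that acts on such mucins, in 8 of 33 cells and in none of the rest. MG2 gave 30 of the 33 positive cells, and the 2 of MG1 replicate 1 had no UMI of the 3 genes. All 3 genes are known from the high endothelial venules of lymph nodes. Pecam1, an endothelial marker, did not separate them (97.0% and 94.7%), nor did depth (medians of 2455 and 2495 UMIs). Glycam1 was found in 1 of 138 tumor endothelial-like cells. Ackr1 and Selp, both leading genes of this class, were also lower in MT2 than in MG2. Ackr1 was 1330 and 935 CPM in MG2 and 0 in each MT2 library. Selp was 2279 and 2176 CPM in MG2 and 29.3 to 166 CPM in MT2. In mouse 1 the gland and tumor libraries of both genes overlapped, and the part of vessel type in the Ubd levels was not tested. The fourth gland lies beside the inguinal lymph node, whether the node was removed is not given in the sources used here, and its part in these levels was not tested.

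**Figure D5:**
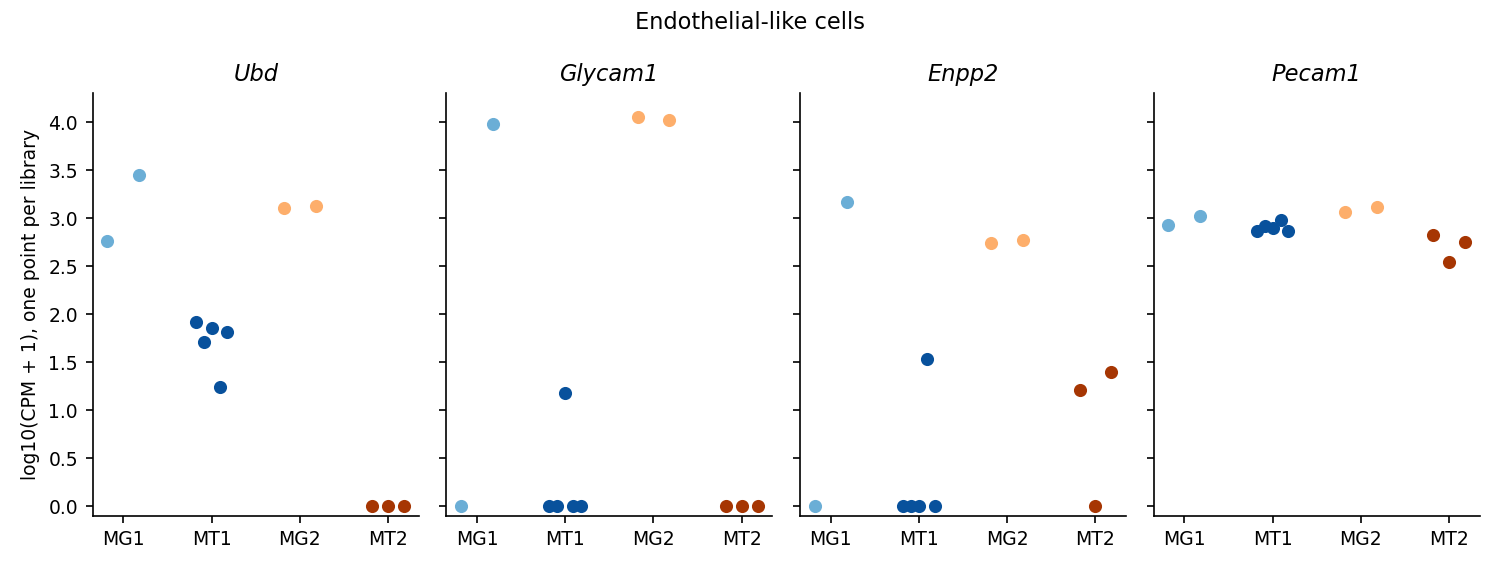
Level of Ubd, Glycam1, Enpp2 and Pecam1 in endothelial-like cells of each library (points; vertical axis in log10(CPM + 1) of plain CPM). Ubd is at 574 CPM or more in the 4 gland libraries, at 82.2 CPM or less in MT1 and at 0 in MT2. Pecam1 is between 351 and 1302 CPM in all 12 libraries, with the MT2 libraries (351 to 665 CPM) below those of MG2 (1160 and 1302 CPM).

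Of the subunit genes, Nfkb1 (chromosome 3, 135584655 to 135691547, minus strand), which encodes the p50 precursor, fell in MT1 and did not fall in MT2. Its level was 260.04 and 260.9 CPM in MG1 and 103, 98.4, 116, 94.7 and 122 CPM in MT1. In mouse 2 it was 191 and 211 CPM in MG2 and 293, 233 and 252 CPM in MT2. Neither pair of groups overlapped, with MT1 below its gland and MT2 above. In MT1 it fell by 1.28 on the log2 scale (SE 0.14, edgeR adjusted p = 9.75e-07), and the 21 alternatives run gave values from -1.72 to -0.78, all past the threshold. The MT2 change of 0.37 ± 0.16 (adjusted p = 0.0455) was close to the threshold and did not pass with all cells (0.26, adjusted p = 0.138), without MT2 replicate 1 (0.25, adjusted p = 0.179), without the 5% of cells with most UMIs (0.32, adjusted p = 0.0948), without cells in clusters of another tissue (0.34, adjusted p = 0.0534), or without MG2 replicate 1, MT1 replicate 3, MT1 replicate 4 or MT2 replicate 3 (adjusted p = 0.0532 to 0.076). Against luminal secretory-like cells alone it was 0.05 (adjusted p = 0.825), against hormone-sensing-like cells alone 0.83 (adjusted p = 0.000291), and without MG2 replicate 2 it was 0.65 (adjusted p = 0.0141). The change was lower in mouse 1 than in mouse 2 (difference -1.65, SE 0.22, adjusted p = 6.83e-06).

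By class, Nfkb1 was lowest in Sfrp1-high cells of MT1 (38.8 CPM), followed by Ccl20-high cells (126 CPM) and Cav1-high cells (234 CPM). The MT2 clusters held 233 to 274 CPM and the gland luminal and basal-like classes 162 to 339 CPM. Fibroblast-like cells carried more of it in the glands (965 CPM in MG1 and 681 CPM in MG2) than in the tumors (359 and 335 CPM). In an edgeR fit of fibroblast-like cells alone, in which 37.2% and 21.0% of 3882 genes were called, Nfkb1 fell by 1.75 in MT1 (SE 0.32, adjusted p = 2.00e-04) and by 1.19 in MT2 (SE 0.34, adjusted p = 0.0137). The MT2 call was lost without MG2 replicate 1 (-1.14, adjusted p = 0.125), MG2 replicate 2 (-1.25, adjusted p = 0.0913) or MT2 replicate 2 (-0.99, adjusted p = 0.0567), with values near that of all libraries.

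Relb (chromosome 7, 19606217 to 19629438, minus strand), the subunit of the non-canonical arm, fell in MT2 and came close to the threshold, with lower values, in MT1. Levels were 41.6 and 48.4 CPM in MG1 and 29.97, 26.3, 33.4, 38.5 and 33.2 CPM in MT1. They were 52.7 and 55.9 CPM in MG2 and 39.0, 35.7 and 38.7 CPM in MT2. In neither mouse did gland and tumor libraries overlap. The change was -0.42 ± 0.18 in MT1 (edgeR adjusted p = 0.0545), which passed without MT1 replicate 4 (-0.51, adjusted p = 0.0224) or MT2 replicate 2 (-0.44, adjusted p = 0.0492) and in 7 other alternatives: RLE scaling, DESeq2, all cells, no cells in clusters of another tissue, only the groups compared and each gland luminal class alone (-0.64 to -0.45, adjusted p = 0.0149 to 0.0498). In MT2 the gene fell by 0.52 (SE 0.16, adjusted p = 0.00681). The MT2 call was lost without MG2 replicate 1 (-0.36, adjusted p = 0.168), MG2 replicate 2 (-0.27, adjusted p = 0.323), MT1 replicate 1 (-0.38, adjusted p = 0.0524) or MT1 replicate 5 (-0.38, adjusted p = 0.0574). It was also lost against luminal secretory-like cells alone (-0.26, adjusted p = 0.224), while against hormone-sensing-like cells alone the value was -0.90 (adjusted p = 9.87e-05). Hormone-sensing-like cells of MG2 had the highest epithelial level, at 78.3 CPM. Relb passed in neither mouse in the fit of fibroblast-like cells (adjusted p = 0.295 and 0.220) or of endothelial-like cells (adjusted p = 0.958 and 0.819).

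The feedback inhibitors rose in MT1, and Tnfaip3 rose in both tumors. Tnfaip3 (chromosome 10, 19000910 to 19015657, minus strand), which encodes the ubiquitin-editing enzyme A20, was 16.6 and 15.5 CPM in MG1 and 43.5, 44.7, 32.8, 32.5 and 43.1 CPM in MT1. It was 15.3 and 18.6 CPM in MG2 and 63.9, 61.9 and 61.6 CPM in MT2. All 8 tumor libraries lay above all 4 gland libraries. The log2 fold change was 1.24 ± 0.23 in mouse 1 (2.36-fold, edgeR adjusted p = 0.000188) and 1.88 ± 0.19 in mouse 2 (3.68-fold, adjusted p = 7.44e-08). Both calls held under each of the 21 alternatives run for them. The difference of -0.64 between the mice (SE 0.30, adjusted p = 0.0968) did not pass, although it did with RLE scaling (-0.78, adjusted p = 0.0482) and without MG2 replicate 2 or MT1 replicates 1, 2 or 5 (adjusted p = 0.0348 to 0.0433).

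Tnfaip3 was spread over the MT2 clusters (51.1 to 64.4 CPM), while in MT1 it was higher in Ccl20-high cells (62.6 CPM, interval 56.5 to 69.1) than in Sfrp1-high (25.3 CPM, interval 22.2 to 28.8) and Cav1-high cells (23.2 CPM, interval 18.7 to 28.6), the last pair overlapping. Thinned shares were 4.69%, 2.21% and 1.63% in MT1 (12.9%, 5.90% and 5.27% unthinned). Gland luminal classes held 11.1 to 21.5 CPM, and endothelial-like cells 168.5 CPM in MG2 and 56.8 CPM in MG1 (interval 15.5 to 146, 4 UMIs). In the fit of fibroblast-like cells the gene passed in neither mouse (0.78 and -0.61, edgeR adjusted p = 0.197 and 0.332), but in mouse 1 it did without MG1 replicate 1 (2.48, adjusted p = 0.0256). In MT2 tumor-cluster cells with a Tnfsf11 UMI, the thinned share with Tnfaip3 was 3.61%, against 4.76% in those without, while the unthinned shares had the opposite order (23.5% and 17.9%, at medians of 4662.5 and 3007 UMIs), so no order is read from them.

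Nfkbia (chromosome 12, 55489410 to 55492647, minus strand), the gene of IkappaBalpha, was found in most cells of every group. Its level was 1957 and 1088 CPM in MG1 and 2881, 2970.0, 2814, 2860.3 and 2691 CPM in MT1. It was 939.7 and 883 CPM in MG2 and 1130.4, 1503 and 1227 CPM in MT2. Tumor libraries lay above the gland libraries in both mice, and the MG1 libraries were far apart. The change was 0.89 ± 0.20 in mouse 1 (edgeR adjusted p = 0.000869), and 1.499 without MG1 replicate 1 or 0.56 without MG1 replicate 2. In mouse 2 it was 0.50 ± 0.21 (adjusted p = 0.0419), and the call was lost with all cells (0.36, adjusted p = 0.102), without MT2 replicate 2 (0.35, adjusted p = 0.155), against hormone-sensing-like cells alone (0.35, adjusted p = 0.182) or luminal secretory-like cells alone (0.43, adjusted p = 0.0546), without cells in clusters of another tissue (0.44, adjusted p = 0.0537), and without MT1 replicate 3, MT1 replicate 4 or MT2 replicate 3 (adjusted p = 0.0507 to 0.0585). The mice differed by 0.40 (SE 0.28, adjusted p = 0.267), and by 0.97 without MG1 replicate 1 (adjusted p = 0.00239). Among the MT1 tumor clusters the level was highest in Ccl20-high cells (3658 CPM), then Sfrp1-high (2556 CPM) and Cav1-high cells (2003 CPM), with the MT2 clusters at 1190 to 1281 CPM. Endothelial-like cells held 4803, 3431, 4200 and 1882 CPM in MG1, MG2, MT1 and MT2. In their fit the gene went the other way in mouse 2, where it fell by 0.93 (SE 0.25, adjusted p = 0.00696). Leaving out MG2 replicate 1, which leaves 1 library in MG2, ended that call with a value of -0.85. It did not pass in mouse 1 (-0.49 ± 0.30, adjusted p = 0.278). In fibroblast-like cells it passed in neither mouse (-0.20 and -0.35, adjusted p = 0.526 and 0.360). Nfkbia is also induced by tissue dissociation. Of the 12 dissociation and immediate early genes listed, 1 was higher and 6 were lower in MT1, against 32.1% and 27.1% of all genes. In MT2, 1 was higher and 9 were lower, against 32.8% and 34.2% of all genes. The part of these genes in the Nfkbia levels was not tested.

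Tnfaip2 (chromosome 12, 111442469 to 111455018, plus strand) did not pass the test in either mouse. It was 54.1 and 43.2 CPM in MG1, 42.9 and 60.6 CPM in MG2, 55.0 to 65.5 CPM in MT1 and 58.9, 50.8 and 53.4 CPM in MT2. The change was 0.23 ± 0.18 in mouse 1 (edgeR adjusted p = 0.292) and 0.07 ± 0.17 in mouse 2 (adjusted p = 0.724). Its value turned on the cells used. With stromal cells included, MT1 was lower than MG1 (-0.41, adjusted p = 0.0237). Against luminal secretory-like cells, which held 95.4 and 74.3 CPM, MT1 was lower by a log2 value of -0.998 (adjusted p = 0.000137) and MT2 by -0.46 (adjusted p = 0.0153). Against hormone-sensing-like cells, which held 20.9 and 44.9 CPM, MT1 was higher by 1.49 (adjusted p = 0.000189) and MT2 differed by 0.42 (adjusted p = 0.0717), and there the difference between the mice passed (1.07, adjusted p = 0.0209). Without MG2 replicate 2 the MT2 value was 0.55 (adjusted p = 0.0281). In MT1, Ccl20-high cells held 98.0 CPM, Cav1-high cells 73.4 CPM and Sfrp1-high cells 23.9 CPM. In fibroblast-like cells the gene fell by 1.98 in MT1 (SE 0.34, adjusted p = 9.96e-05) and by 1.80 in MT2 (adjusted p = 1.73e-04), from 255 and 247 CPM in the glands to 77.7 and 79.1 CPM.

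Set side by side, the tumors differed in 7 of the 9 genes. MT1 was below MT2 in Tnfsf11 (-4.57 ± 0.21, edgeR adjusted p = 1.49e-12), Nfkb1 (-1.28 ± 0.12, adjusted p = 3.49e-08) and Tnfaip3 (-0.69 ± 0.13, adjusted p = 0.000152). It was above MT2 in Tnfrsf11a (4.86 ± 0.38, adjusted p = 2.22e-09, or 2.70 with stromal cells included), Tnfrsf11b (8.77 ± 0.38, adjusted p = 5.76e-13), Nfkbia (1.14 ± 0.17, adjusted p = 9.72e-06) and, as a bound, Ubd. Relb (-0.21 ± 0.13, adjusted p = 0.1604) and Tnfaip2 (0.12 ± 0.13, adjusted p = 0.435) did not pass, and their libraries overlapped, but Relb passed without MG2 replicate 1 or 2 (adjusted p = 0.0442 and 0.0435). The ligand was high in the tumor with little receptor and decoy receptor transcript, and in MT1 the ligand was low and both others were present.

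With the mouse as the replicate (2 mice, 1 summed gland and tumor each, mouse as a block), edgeR called 0 of 14945 genes, with 2221 at an unadjusted p under 0.05, and DESeq2 called 1323 of 14525. None of the 9 genes was called by either tool. At an unadjusted p under 0.05, edgeR had 1 of the 9, Tnfaip3 (log2 fold change 1.60, edgeR adjusted p = 0.318), and DESeq2 had 2, beside 14.9% of all genes in edgeR and 14.1% of the 21665 genes with a p in DESeq2.

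The other genes of the pathway are given from lists chosen by name. The median log2 change of all genes tested was 0.11 in MT1 against MG1 and -0.05 in MT2 against MG2. Of all genes, 32.1% were called higher and 27.1% lower in MT1, and 32.8% and 34.2% in MT2. Counts near these shares say little about a list. Of 15 adaptors and kinases of RANK and TNF receptors, 6 were higher and 1 was lower in MT1 (median 0.40), with Tab1 highest (2.36, edgeR adjusted p = 0.00211) and Ripk1 lowest (-0.84, adjusted p = 0.00128). In MT2, 5 were higher and 4 were lower (median 0.05), among them Traf1, itself an NF-kB target, at 4.24 (adjusted p = 1.29e-11) and Traf6, the adaptor RANK needs, at -1.70 (adjusted p = 2.50e-08). Of 11 other NF-kB subunits and inhibitors, 2 were higher and 2 were lower in MT1 (median -0.04), and 2 were higher and 3 were lower in MT2 (median 0.05). Nfkbiz, an atypical IkappaB gene, rose by 1.62 in MT1 (adjusted p = 1.84e-05) and Tnip1, an A20 partner, by 1.03 in MT2 (adjusted p = 7.75e-05), while Tnip2 stood at -1.09 and -2.55 (adjusted p = 0.000206 and 6.33e-10).

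Of 20 other NF-kB target genes, 10 were higher and 4 were lower in MT1 (median 1.44, or 0.99 with genes absent from 1 group at their bound), and 13 were higher and 5 were lower in MT2 (median 1.82). For this list and the next, the shares of all genes were 32.1% higher and 27.1% lower in MT1, and 32.8% and 34.2% in MT2. The chemokine gene Ccl20 was higher in MT1 by at least 6.31 on the log2 scale (adjusted p = 1.44e-07) and at 0 in MT2, which puts its change against MG2 at -4.48 or below. Il6, a cytokine, stood at -3.54 in MT1 (adjusted p = 1.14e-07), and Csf2, which encodes GM-CSF, at 7.39 in MT2 (adjusted p = 1.03e-08). Of 12 other TNF ligands and receptors tested of 15 listed (Tnfsf13, Ltb and Lta were too low to test), 3 were higher and 2 were lower in MT1 (median 0.22), with Cd40 at least 1.39 higher and Tnfsf12 at -1.97 (adjusted p = 0.00345 and 0.00480). In MT2, 4 were higher and 2 were lower (median 0.07), with Tnfsf13b (BAFF) at 2.74 (adjusted p = 3.54e-05) and Tnfsf10 (TRAIL) at -6.42 (adjusted p = 4.84e-10).

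Of 9 hormone inputs and RANKL responses tested, 7 were lower, 1 was higher and 1 was not called in MT1 (median -2.75), where 27.1% of all genes were lower. In MT2 all 9 were lower (median -8.86, or -7.92 with bounds), against 34.2% of all genes. Pgr, the progesterone receptor gene, stood at -6.29 in MT1 (adjusted p = 1.17e-11), Elf5, a luminal progenitor transcription factor gene, at 0.59 (adjusted p = 0.0111), and Calca, the calcitonin gene, was at 0 in MT2, a change of -10.15 or below (adjusted p = 6.25e-09). Summed hormone-sensing markers fell as well, from 1984 to 2794 CPM in the glands to 85.3 to 121 CPM in MT1 and 8.32 to 9.25 CPM in MT2, and their part in these changes was not tested. Pgr, Esr1, Prlr and Wnt4 are in both lists, so these falls are not independent. Of 11 interferon response genes, a group listed because interferon is known to induce Ubd, 10 were higher and none was lower in MT1 (median 1.63), led by Ifit1 (3.61, adjusted p = 9.78e-06). Of all genes, 32.1% were higher and 27.1% lower there. In MT2, 2 were higher and 4 were lower (median -0.40), against 32.8% and 34.2% of all genes, with Psmb10 at 1.86 (adjusted p = 4.64e-08) and Irf7 at -4.28 (adjusted p = 1.30e-09). Among the dissociation genes counted above (medians -0.69 and -1.001), Ier2 was highest and Fosb lowest in MT1 (1.02 and -2.61, adjusted p = 5.87e-05 and 1.62e-08), and Dusp1 highest and Fos lowest in MT2 (0.91 and -3.03, adjusted p = 0.00106 and 1.50e-08).

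Genes with the most similar pattern were looked for over 42 sums of 1 cell class in 1 library (at least 50 cells each, Pearson's r of log2(CPM + 10)). These sums share libraries, depth and the clusters themselves, so r is a description. Tnfsf11 was most like Ptprn (0.969), Mgarp (0.960) and Thbs4 (0.957), and Tnfrsf11b most like Ccl20 (0.934), Gpx2 (0.929) and Ifit3b (0.922). For Ubd they were Ttc9 (0.926), Tspan7 (0.906) and Bend4 (0.903). Tnfrsf11a was most like Gmfg (0.860), Serpinb8 (0.7999) and Hcls1 (0.798), of which Gmfg and Hcls1 are known from blood cells. Nfkb1 was most like Cdc42bpa (0.881), Eif4e (0.853) and Rusc2 (0.851), and Nfkbia most like C1qtnf1 (0.828), Anxa3 (0.822) and B2m (0.811). Tnfaip3 followed Igfbp7 (0.809), Ppp1r12b (0.758) and Gstm2 (0.739), and Tnfaip2 followed Crip1 (0.792), Clcn6 (0.739) and Mfhas1 (0.722). Relb had no close match, with Tmem55b (0.687), Gm10120 (0.630) and Zfp53 (0.627) nearest.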

How the data were processed

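Single cells of 2 glands and 2 tumors were sequenced by Drop-seq in 12 libraries. Per the study's methods, the authors aligned reads with STAR to mouse build GRCm38.p6 and deposited raw UMI counts per gene and cell, after removing genes found in fewer than 4 cells of a count table, shallow cells and extremes. The deposited counts were used as they are. No batch is given in the sources used here, so a batch that follows a tissue cannot be told apart from it. Between libraries, 0 to 7 cell barcodes were shared.

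Cells were clustered without the 9 genes in scanpy 1.11.5 (3000 variable genes, log-normalised to 10000 UMIs, 30 components, 20 neighbours, leidenalg 0.10.2 at resolution 0.6). Clusters were named from at least 3 raised markers of a cell type, by a leading gene, or by both. The proliferation and mesenchymal lists gave no names, though 8 of 8 and 3 of 8 were raised in Top2a-high and Cav1-high cells. No doublet caller was run; leaving out the 5% of cells with most UMIs was an alternative. UMIs were summed per library outside stromal clusters, filtered by filterByExpr, and tested in R 4.3.3 with edgeR 4.0.16 (glmQLFit, 4 groups, TMM). Alternatives were RLE scaling, no filter, DESeq2 1.42.0, all cells, only the groups compared, no cells in clusters of another tissue, 1 gland class at a time and leaving out each library. Fits of endothelial-like and fibroblast-like cells were added after the data were seen. Levels per cell class are descriptions, since classes come from the same cells. Counts are of 3′ ends, so levels were not compared between genes. The fits were tested on simulated counts.

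All 9 genes were named in each comparison of cells outside stroma. In the endothelial-like and fibroblast-like fits, members with too few counts were not tested. From each of 7 fixed lists (receptor adaptors and kinases, other NF-kB subunits and inhibitors, other NF-kB targets, other TNF ligands and receptors, hormone inputs and RANKL responses, interferon response, dissociation) the called genes with the largest rise and fall were named, and for each of the 9 the 3 genes with the highest r among those with at least 100 UMIs. The genes and lists were chosen with earlier results of these data known. Areg, listed among the hormone inputs, was not analysed here. Gene positions are those of the annotation used with build GRCm38, and sequences are from RefSeq. Mouse pairing of gland and tumor comes from the labels, with library numbers in accession order that pair nothing.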

Additional observations from a re-analysis of the deposited data

Results flagged for a closer look

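The tumor-to-gland change of 5 of the 9 genes differed between the mice in the edgeR test of that difference itself (mouse 1 minus mouse 2, log2 scale, background 43.4% of all genes). The values were -6.64 for Tnfsf11, 4.33 for Tnfrsf11a, 8.49 for Tnfrsf11b, 12.98 for Ubd and -1.65 for Nfkb1. The Ubd value is a fitted one that depends on MT2 being at 0 UMIs, and the Tnfrsf11b value becomes 16.46 without MG1 replicate 1, which leaves MG1 at 0 UMIs. In endothelial-like cells the same difference for Ubd was 5.87 (SE 1.44, edgeR adjusted p = 0.0149), with MT2 again at 0 and with 1 library left in MG1. Each mouse is 1 animal, so a difference between the mice, between the tumors and between capture runs cannot be told apart. No library of the 5 of MT1 stood out from its group in any of the 9 genes.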

How the results depend on the processing

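Over 728 values of the 9 genes in the 4 library comparisons under alternative settings, 660 kept their direction and their side of the threshold, 22 lost a call, 21 gained one and 25 changed sign, 3 of which also gained a call. Changes of sign concerned values that had not passed the test with the settings of the report: Tnfsf11, Tnfrsf11a and Tnfaip2 against the glands, Tnfaip2 between the tumors, and the difference between the mice for Relb and Tnfaip2. The number of the 9 genes called in MT1 against MG1 went from 5 to 8 with luminal secretory-like cells as the only gland cells, while the share of all genes called went from 59.3% to 50.5%. With all cells, Tnfsf11 and Tnfaip2 in MT1 against MG1 were 0.00562 and -0.41 (the latter called, adjusted p = 0.0237), Tnfaip2 in MT2 against MG2 was -0.0752, and the differences between the mice were -0.00666 for Relb and -0.34 for Tnfaip2. With luminal secretory-like cells only, the values were 0.53 for Tnfsf11 and -0.998 for Tnfaip2 in MT1, -0.46 for Tnfaip2 in MT2 (both Tnfaip2 values called), and -0.38 and -0.54 for the differences of Relb and Tnfaip2. With hormone-sensing-like cells only, Tnfrsf11a in MT1 was 0.78. The Relb difference was -0.0525 with RLE scaling and -0.0280 with DESeq2, and the Tnfaip2 difference -0.0104 without the deepest cells. The causes were not tested.

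Leaving out each library in turn gave -1.65 to 0.29 for Tnfsf11 in MT1 against MG1, -0.00706 to 0.55 for Tnfaip2 in MT2 against MG2, -0.111 to 0.18 for the Relb difference, -0.28 to 0.46 for the Tnfaip2 difference and -0.0127 to 0.19 for Tnfaip2 between the tumors. In endothelial-like cells it gave -0.56 to 0.12 for Relb in MT2 against MG2. With the mouse as the replicate, Ubd was 1.57 with no mouse block and Tnfaip2 -0.19 with all cells. RLE scaling moved the median of all genes by -0.11 in MT1 against MG1. Depth limits Tnfsf11 in the glands and MT1 and Tnfrsf11a and Tnfrsf11b in MT2, which rest on 4 to 29 UMIs a group.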
